A study of Drosophila melanogaster with 3 samples.

Results

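The cuticle protein genes were described here by where Stwl-GFP was found around them. They are the protein-coding genes whose symbols begin with Cpr, Lcp, Ccp or Twdl followed by a digit or a capital letter, and they numbered 115 of the 13945 protein-coding genes on the main chromosome arms. The rule reads symbols and no measured value, although the group was picked with earlier results of these data known. By family, 70 were Cpr genes, 15 Lcp genes, 7 Ccp genes and 23 Twdl genes. They lay on 3L (45 genes), 3R (31), 2R (26), X (7) and 2L (6), with none on chromosome 4. The rule leaves out Twdlalpha and Twdlbeta, whose symbols carry a lower-case letter at that place.

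The data are peak lists from chromatin immunoprecipitation and sequencing (ChIP-seq) of whole Drosophila melanogaster embryos of 0 to 10 hours. All samples came from 1 transgenic line that makes the DNA-binding protein Stonewall (Stwl) with GFP at its C-terminal end, and an antibody against GFP was used. There were 3 biological replicates of this single group, with no second genotype, stage or treatment, so the 115 genes were compared with the other protein-coding genes and with themselves across replicates. Each replicate list and a pooled list held 30000 peaks, and 7241 summits of the pooled list passed the irreproducible discovery rate (IDR), a measure of agreement between replicates.

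Cuticle proteins are secreted by the epidermis and related epithelia and pack around chitin fibres to form the exoskeleton. Most Cpr, Lcp and Ccp proteins carry the chitin-binding Rebers and Riddiford motif, whereas Tweedle (Twdl) proteins form a separate family that is known from mutants with altered body shape. Many of the genes stand in tandem clusters that arose by duplication, and they are known to be switched on when cuticle is laid down, late in embryogenesis and around the moults. Whole embryos mix all cell types, so a site occupied in few cells and a site occupied weakly in many cannot be told apart in these lists.

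Stwl-GFP summits were scarce at the promoters of cuticle protein genes. An IDR summit lay within 500 bp of a transcription start site (TSS) of 1 of the 115 genes, or 0.870% (95% Wilson interval 0.154 to 4.76), against 42.1% of all protein-coding genes. In the longer pooled list, which also takes in weak peaks, the count was 6 genes or 5.22% (2.41 to 10.9), against 56.1% of all protein-coding genes. These intervals cover counting error only, and neighbouring genes are not independent. By family, the IDR count was 0 of 7 Ccp, 0 of 70 Cpr, 1 of 15 Lcp and 0 of 23 Twdl genes, and the pooled count was 0, 5, 1 and 0.

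The difference was present in each replicate. In the whole lists, a summit lay at the promoters of 10 cuticle protein genes in replicate 1, against 57.2% of all protein-coding genes. Replicate 2 also had 10, against 55.6%, and replicate 3 had 6, against 57.2%. As shares, the cuticle protein genes averaged 7.54% ± 2.01 and the other protein-coding genes 57.1% ± 0.924 (SD, n = 3 replicates). Among the 7241 strongest summits of each replicate, exactly 1 cuticle protein gene was reached in every list (0.870%), against 40.9%, 41.3% and 42.2% of all protein-coding genes. In each of these lists the share was lower for the cuticle protein genes. Among the strongest summits the gene reached was Lcp9 each time. The spread between replicates shows how far the lists agree and is not the error of a difference between groups of genes.

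**Figure D1:**
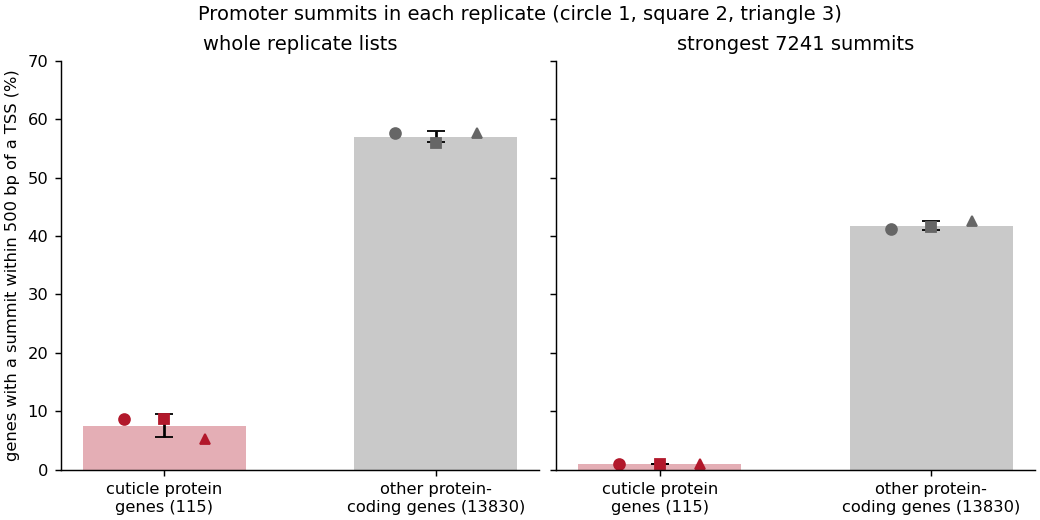
Share of genes (%) with a summit within 500 bp of a TSS in each replicate, for the whole lists (left panel) and the 7241 strongest summits (right panel). Red marks the 115 cuticle protein genes and grey the other protein-coding genes. Bars are means, error bars SD and symbols the 3 replicates; the cuticle protein genes sit at 5.22 to 8.70% in the whole lists and at 0.870% among the strongest summits, far under the other genes in each list.

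The single gene with an IDR summit at its promoter was Lcp9, a larval-cuticle-type gene outside the clusters on 2R. The summit lay 466 bp from the TSS of Lcp9 but 23 bp upstream of the TSS of its neighbour CG3594. It had a signal value of 372 on the authors' scale and was number 4103 of the pooled list. Its ranks were 6863, 6598 and 3649 in replicates 1, 2 and 3, so it was found in all of them at moderate strength. When each summit was given only to the protein-coding gene with the nearest TSS, a choice made after the data were seen, none of the 115 genes had an IDR promoter summit, against 31.3% of all protein-coding genes. Just beyond the 500 bp limit stood Cpr49Ae at 968 bp, Cpr60D at 1001 bp, Cpr47Eg at 1249 bp, Cpr73D at 1383 bp and Cpr76Ba at 1606 bp.

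The 5 genes that the pooled list added had weak summits. Their signal values were 51.5 at Cpr31A, 62.5 at Cpr50Cb, 62.5 at Cpr51A, 74.2 at Cpr67B and 98.2 at Cpr12A. The weakest summit of the IDR list had a signal value of 194.5, and all 5 fell under it. With Lcp9 included, the median over the 6 genes was 68.4, against 353.5 over the 7819 other protein-coding genes with a pooled promoter summit. All 6 stood outside the clusters. For each of the 5 weak summits the gene named was also the protein-coding gene with the nearest TSS. Replicate support for these summits was thin, at a match within 150 bp. That at Cpr50Cb had a match in no replicate, and those at Cpr31A and Cpr12A only in replicate 3. The summit at Cpr51A had matches in replicates 2 and 3, and that at Cpr67B in replicates 1 and 3.

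Most cuticle protein genes had no promoter summit in any replicate. Of the 115 genes, 100 had no promoter summit in any whole replicate list, 6 had one in 1 list, 7 in 2 lists and 2 in all 3. Thus 9 of the 15 genes with any had one in more than 1 list. The same count over the 3 lists was not made for all protein-coding genes. In each single list 55.6 to 57.2% of those had a promoter summit. Genes were counted here, not matched sites, so summits in different lists need not be the same site. At Cpr65Ay the summits of replicates 2 and 3 lay on opposite sides of the TSS. So did those of replicates 1 and 2 at Cpr67Fa2. The 2 genes with a summit in all lists were Lcp9 and Cpr12A. Within 150 bp, the pooled summit at Lcp9 had a match in all 3 replicates and that at Cpr12A only in replicate 3. At Cpr12A the nearest summit was 390, 388 and 201 bp from the TSS in replicates 1, 2 and 3, with ranks of 21581, 14778 and 10795, all in the weaker part of lists of 30000. Lcp2 and Lcp3, larval cuticle genes that face away from each other, shared 1 site between them. That site was number 9291 in replicate 1 and number 9462 in replicate 2, and it was absent from replicate 3 and from the pooled list. At Cpr66Cb a summit stood 50 bp from the TSS in replicate 1 and 55 bp in replicate 2, with ranks of 19175 and 22627, but the nearest summit of replicate 3 was 2346 bp away.

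A close neighbour can make a gene count as bound, as at Lcp9. Among genes without one the shares still differed: 47 of the 115 genes had no TSS of another gene of any kind within 2000 bp. None of these 47 isolated genes had an IDR promoter summit (0%, upper bound of the 95% interval 7.56), against 24.1% of all 4638 isolated protein-coding genes. In the pooled list 3 of them did (6.38%, 2.19 to 17.2), against 40.4%.

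Cuticle protein genes also stood farther from the nearest summit. The median distance from a TSS to the nearest IDR summit was 13.8 kb for the cuticle protein genes (quartiles 6.45 and 22.7), against 1.76 kb for the other protein-coding genes (0.0870 and 9.11). In the 7241 strongest summits of each replicate the medians averaged 14.3 kb ± 0.50 for the cuticle protein genes and 1.86 kb ± 0.155 for the other genes (SD, n = 3). In the pooled list, with more summits, the medians were 8.52 kb for the cuticle protein genes and 0.257 kb for the others. In the whole lists of replicates 1, 2 and 3 they were 7.13, 5.26 and 8.48 kb for the cuticle protein genes, against 0.265, 0.300 and 0.227 kb for the others. Among isolated genes and IDR summits the medians were 14.6 kb for the cuticle protein genes and 5.68 kb for the others. An IDR summit lay within 5 kb of 25 cuticle protein genes or 21.7% (15.2 to 30.1), against 64.3% of all protein-coding genes, and within 20 kb of 78 or 67.8% (58.8 to 75.7), against 87.2%. The largest distance was 73.1 kb, at TwdlD, and none of the 115 was among the 100 protein-coding genes farthest from an IDR summit. The first of those 100, l(3)80Fj, stood 3289 kb away and the 40th, CG17883, 682.6 kb. That order therefore says little about how unusual 73.1 kb is among most genes.

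**Figure D2:**
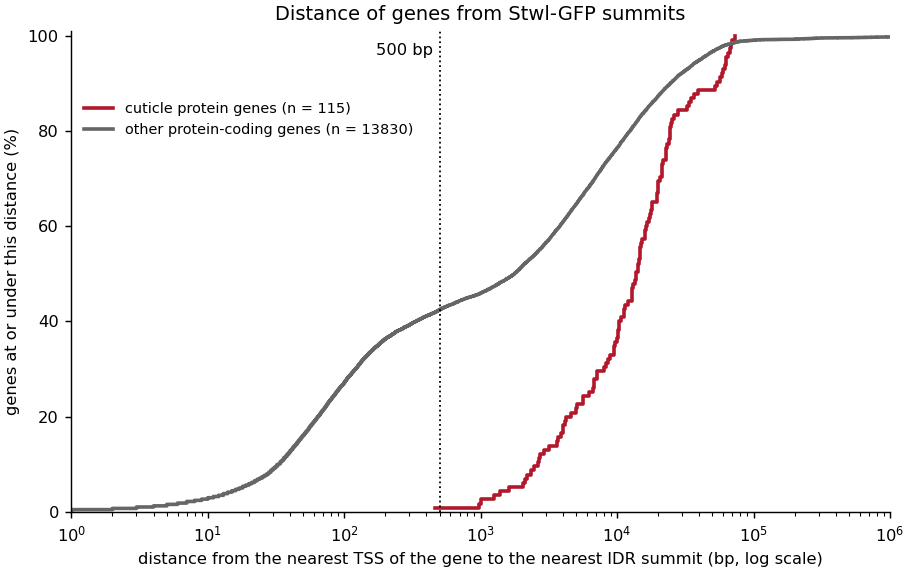
Cumulative share of genes (%, vertical axis) by distance from the nearest TSS of the gene to the nearest IDR summit (bp, log scale). The red line is the 115 cuticle protein genes and the grey line the 13830 other protein-coding genes; the red line leaves the baseline at 466 bp and reaches 100% at 73.1 kb, and its median of 13.8 kb lies right of the other genes' 1.76 kb.

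The families differed in how far they stood from summits. The median was 13.8 kb for Ccp (range 2.45 to 19.8), 10.5 kb for Cpr (0.968 to 39.0), 13.5 kb for Lcp (0.466 to 24.2) and 54.4 kb for Twdl (2.67 to 73.1). The Twdl value rests largely on 1 cluster of 12 genes on 3R, whose members were 52.2 kb (TwdlM) to 73.1 kb (TwdlD) from a summit. TwdlT, another Tweedle gene on 3R outside the clusters, stood 63.2 kb from a summit. The Twdl gene nearest to a summit was TwdlE at 2.67 kb. Because clustered genes share the same surrounding summits, these family values were given no test.

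**Figure D3:**
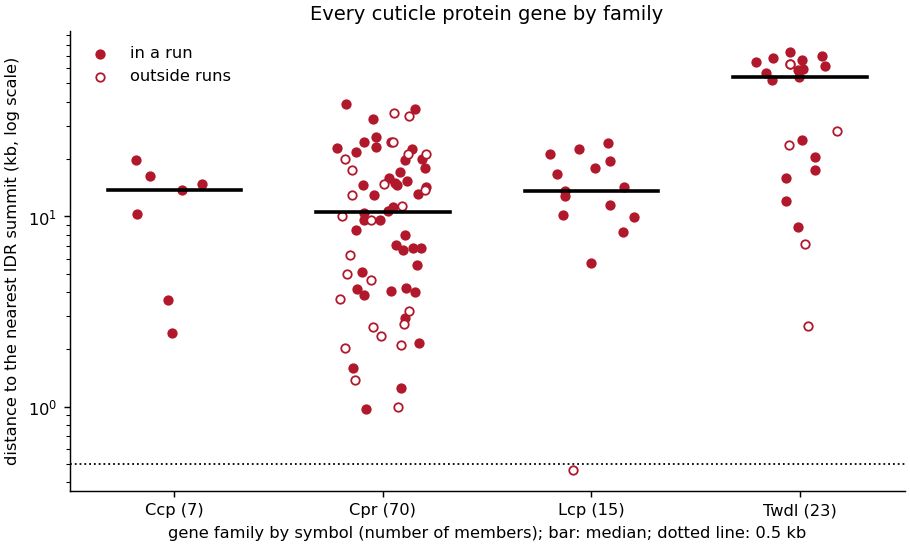
Distance to the nearest IDR summit (kb, log scale) for each of the 115 cuticle protein genes by family. Filled points are genes in clusters, open points genes outside them, black bars medians and the dotted line 0.5 kb; 1 Lcp gene, Lcp9, lies under the line, and most Twdl genes lie above 50 kb.

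Few IDR summits lay in the bodies of these genes. An IDR summit lay between the start and end of 3 of the 115 genes or 2.61%, against 15.4% of the other protein-coding genes. Cuticle protein genes are short, with a median length of 0.983 kb against 2.18 kb, and these shares are not adjusted for length. Per 100 kb of gene the counts were 2.00 and 3.44 summits. The value for the cuticle protein genes rests on only 4 summits, so this difference is coarse, and it was not tested. In 2 of the 3 the summit lay where another gene overlaps. Cpr73D held 2 summits, of signal 1085 and 298, which stood 86 bp upstream and 542 bp downstream of the TSS of Ogdh, a gene of the citric acid cycle enzyme oxoglutarate dehydrogenase. TwdlE overlapped lectin-28C at its summit. The third was Cpr49Ae, with a summit in its intron.

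Cuticle protein genes were next grouped into runs, meaning stretches of at least 3 of them with under 20 kb between neighbours. There were 15 runs with 84 of the 115 genes, 4.70 to 38.5 kb long and 235.4 kb in total. They enclosed or overlapped 17 other protein-coding genes. Of these, only CG43367 (66 bp) and goe (59 bp) had an IDR summit within 500 bp, and both summits lay outside the runs. The others stood 4.41 kb (TpnC47D) to 29.3 kb (Or47a) from an IDR summit, and the pooled list added none within 500 bp. The lack of promoter summits was thus shared by most non-cuticle genes in the runs. Within the runs 2 IDR summits were found, or 0.850 per 100 kb, against 5.42 per 100 kb over all arms. The strongest summits of each replicate gave 2 as well in each of the 3 lists. The pooled list had 7 summits in runs, or 2.97 per 100 kb, against 22.4. In the whole replicate lists the runs held 8, 17 and 7 summits, or 4.53 ± 2.34 per 100 kb (SD, n = 3), against 22.4 in each list. Of the 32 summits that the replicates placed in runs, 20 occurred in 1 replicate only, at a match within 150 bp. The same count was not made for all summits of the whole replicate lists, so it cannot be called particular to the runs.

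Both IDR summits within runs lay at Cpr49Ae, in the 8-gene run of Cpr49Aa to Cpr49Ah (chr2R:12376626-12415170). One stood 968 bp upstream of the Cpr49Ae TSS, with signal 377 and ranks of 2302, 6067 and 4256 in replicates 1, 2 and 3. The other stood in the Cpr49Ae intron 1543 bp downstream of the TSS, with signal 578 and ranks of 2391, 3302 and 2064. All 6 replicate summits in runs that were among the strongest 7241 belonged to this gene. The remaining 14 runs held no IDR summit, and 11 of the 15 held no pooled summit.

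**Figure D4:**
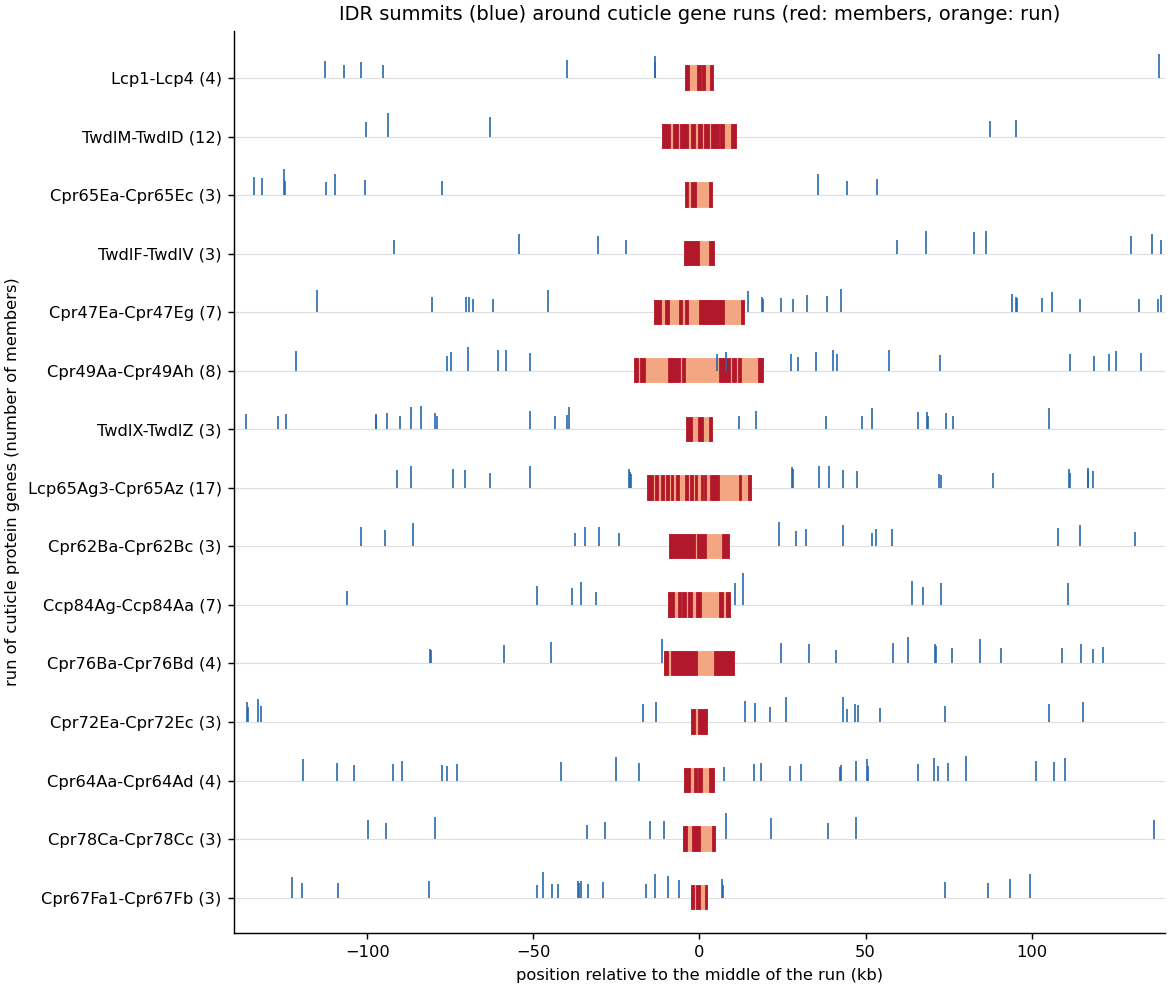
IDR summits (blue ticks, taller for a higher log signal) within 140 kb of the middle of each of the 15 runs, ordered from the longest summit-free stretch at the top. Horizontal positions are in kb from the middle of the run, orange bars are runs and red blocks the cuticle protein genes; blue ticks stand beside the bars but, apart from the 2 at Cpr49Ae, not in them.

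The stretches between the summits that flank a run were long in some cases and ordinary in others. The run of 12 Tweedle genes from TwdlM to TwdlD (chr3R:26619118-26641054) lay in a stretch of 150.4 kb with no IDR summit, the 51st longest of 7235. The 4 larval cuticle genes Lcp1 to Lcp4 (chr2R:8430115-8438495) lay in one of 151.7 kb, the 48th longest. Stretches of 113.1 kb surrounded Cpr65Ea to Cpr65Ec and 81.6 kb TwdlF to TwdlV. The largest run, 17 genes from Lcp65Ag3 to Cpr65Az (chr3L:6130386-6161589), lay in a stretch of 48.7 kb. The shortest stretch, 13.1 kb, held Cpr67Fa1 to Cpr67Fb, yet it too exceeded the median of 6.55 kb over all stretches.

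Long stretches hold more bases than short ones, so the median over stretches is not the stretch a typical base lies in. With all stretches sorted by length, the middle base of the sequence between IDR summits lay in one of 46.5 kb. Counted by gene, the median stretch was 48.7 kb for the cuticle protein genes, against 19.6 kb for the other protein-coding genes and 33.8 kb for the isolated ones among them. Stretches over 20 kb held 99 of the 115 genes or 86.1%, against 49.5% of the other protein-coding genes and 65.1% of the isolated ones. The other protein-coding genes counted here were 13775 of the 13830. Genes of 1 run can share a stretch, so the 115 genes are not independent, and 48.7 kb is also the stretch of the 17-gene run. These values were given no test.

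Summits at the borders of the runs, the first on either side, numbered 30. They stood 826 bp to 134.3 kb from the run, with a median of 13.2 kb, and 7 were within 5 kb and 10 beyond 20 kb. With the pooled list the median was 8.33 kb. Of the 30, 20 were at promoters of other protein-coding genes, or 66.7% (48.8 to 80.8), against 66.4% of all IDR summits, and none was at the promoter of a cuticle protein gene. Their median signal was 521.2 (200.9 to 2011), against 416.0 over the IDR list. Strong and weak ones were both present: 9 ranked 1000 or better and 7 were among the weakest 1000 of the IDR list. Each of these classes holds 1000 of the 7241 IDR summits. In the strongest summits of all 3 replicates 21 of the 30 recurred. This was not counted for all IDR summits, but 4918 of the 7241 strongest summits of replicate 1 had a match in those of both other replicates.

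**Figure D5:**
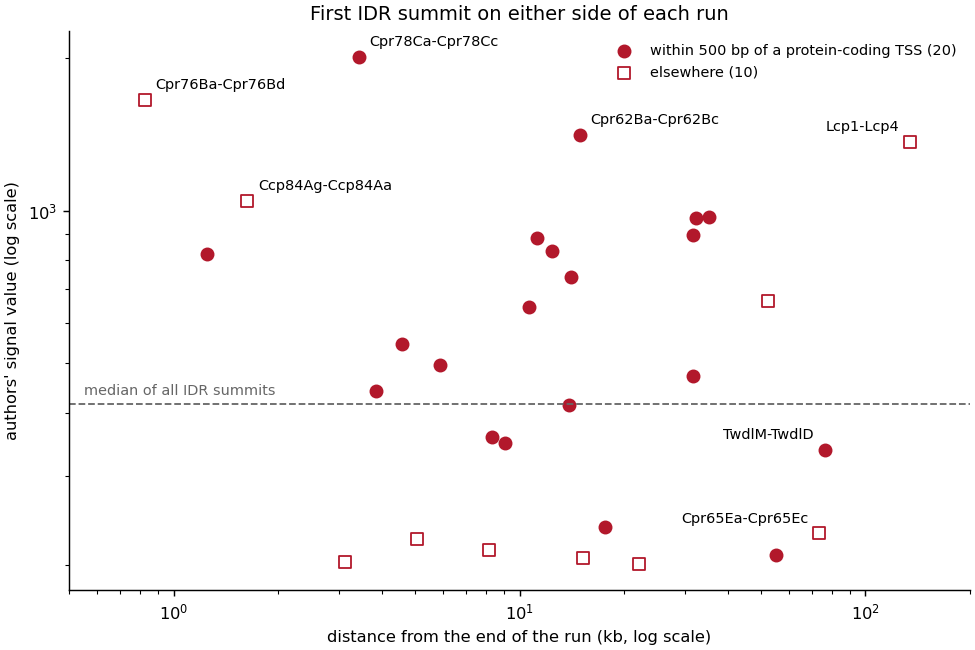
Signal value of the authors (log scale) against distance from the end of the run (kb, log scale) for the 30 border summits. Filled circles are summits within 500 bp of a protein-coding TSS and open squares the others, with the dashed line at the IDR median of 416.0; the strongest, beside Cpr78Ca to Cpr78Cc, reaches 2011, and the farthest, beside Lcp1 to Lcp4, stands at 134.3 kb.

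Many borders lay at promoters of genes outside the cuticle families. Cpr72Ea to Cpr72Ec stood between summits 18 bp upstream of Golgin104 (signal 646) and 38 bp upstream of roq (881), the gene of an RNA-binding ubiquitin ligase. Cpr65Ea to Cpr65Ec had a summit 29 bp upstream of msl-3 (896), a dosage compensation gene, 31.7 kb away on one side, and on the other a weak one (231) in an intron of Mp, away from promoters. The strongest border summit lay 3.43 kb past Cpr78Cc, in an intron 55 bp downstream of a TSS of CG11309. Its signal was 2011, number 85 of the pooled list, with ranks of 97, 60 and 96 in the replicates. The weakest, of signal 200.9, lay in an intron of the Hox gene lab, 22.2 kb from Ccp84Ag.

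At 3 of the 30 border summits the nearest protein-coding TSS was that of a cuticle protein gene, and none of the 3 was at a promoter. Intergenic means outside protein-coding genes here, and non-coding genes were not considered. That of Cpr76Ba to Cpr76Bd (chr3L:19517552-19538289) was intergenic, 826 bp from the run and 1606 bp from the TSS of Cpr76Ba. Its signal was 1653, number 146 of the pooled list, with ranks of 238, 139 and 145 in the replicates, so it was strong in each. That of the 7 Ccp genes Ccp84Ag to Ccp84Aa (chr3R:6686728-6704903) was intergenic too, 1631 bp past the run. Its signal was 1045, number 550, with ranks of 911, 866 and 490. The next summit on that side stood 4.17 kb past the run within pb, another Hox gene, in an intron, with signal 5993, number 8 of the whole pooled list. The third, 3.13 kb past Cpr64Ad and inside an intron of CG43367, was weak, with signal 202.7, number 7013, and ranks of 9335, 14397 and 6769 in the replicates. The summit 1.25 kb past Cpr47Eg stood nearer to its run than the last 2, but at the promoter of CG9067.

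Sequence around 4 border summits is shown. They are both intergenic sites beside Cpr76Ba and Ccp84Aa, and 2 promoter sites at the higher-coordinate borders of the runs of Cpr76B and Lcp65A/Cpr65A genes. The other borders of the Ccp84 and Lcp65A/Cpr65A runs are not shown. Each is 121 bases of the RefSeq Release 6 genome (dm6), centred on the summit and read on the plus strand. Capitals mark matches on either strand to motifs known from insulator and housekeeping promoter sites, the DRE (TATCGATA) or the BEAF-32 core (CGATA), which overlaps it.
Beside Cpr76Ba, chr3L:19516666-19516786: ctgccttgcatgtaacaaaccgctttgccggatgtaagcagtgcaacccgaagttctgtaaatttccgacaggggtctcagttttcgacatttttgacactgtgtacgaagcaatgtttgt
Ltn1 promoter beyond Cpr76Bd, chr3L:19552287-19552407: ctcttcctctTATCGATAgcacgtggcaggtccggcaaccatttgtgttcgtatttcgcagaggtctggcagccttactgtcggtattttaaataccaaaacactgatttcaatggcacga
fmt promoter beyond Cpr65Az, chr3L:6173921-6174041: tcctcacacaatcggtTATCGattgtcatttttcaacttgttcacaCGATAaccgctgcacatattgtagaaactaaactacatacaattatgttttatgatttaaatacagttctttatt
Beside Ccp84Aa, chr3R:6706474-6706594: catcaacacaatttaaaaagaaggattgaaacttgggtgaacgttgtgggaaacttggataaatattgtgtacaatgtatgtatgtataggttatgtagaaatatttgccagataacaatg
The Ltn1 window held a DRE and the fmt window 2 BEAF-32 cores, and both intergenic windows held neither motif in the bases shown, although a BEAF-32 core lay just outside the window beside Cpr76Ba. These 4 windows are examples: of all border summits, searched 100 bp to either side, 11 of the 20 at promoters and 2 of the 10 elsewhere held a BEAF-32 core. The same split was not made for all IDR summits, so it cannot be called particular to the borders.

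Across the 30 border summits, searched 100 bp to either side on both strands, motif shares lay near those of the whole IDR list. A DRE occurred at 3 or 10.0%, against 12% of all 7241 IDR summits, and a BEAF-32 core at 13 or 43.3%, against 45.4%. In windows of the same size 1000 bp away, a BEAF-32 core occurred at 11 of the 30 on the side of the lower coordinate and at 3 on the other, against 22.3% and 22.1% for all IDR summits. These shares were 36.7% on the lower side, above that of all IDR summits, and 10.0% on the higher side, below it, and both rest on few sites. Which of these flanks faces the run differs between left and right borders, so the split by coordinate cannot be read as a split by side of the run. The M1BP motif GGTCACACT occurred at 2 or 6.67%, against 8.96%, and the GAGA factor letters GAGAG at 6 of the 30, against 19.8%. The Su(Hw) core GCATACTTT occurred at 2 or 6.67%, against 2.00%, and the Ohler motif 7 core CATCNCTA at 1 or 3.33%, against 6.02%. The Zelda motif CAGGTAG and the CTCF core GGTGGCGC occurred at none, against 0.594% and 1.60%. With 30 sites, a difference of 1 or 2 sites cannot be resolved.

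Other genes of cuticle formation were counted in the same way, against the same 42.1% of all protein-coding genes. Of 13 other cuticular protein genes, 1 or 7.69% had an IDR promoter summit, and this was Gasp, a chitin-binding protein of the trachea (signal 278). Of 13 tanning and pigment enzyme genes, 1 or 7.69% did, yellow-f2 (278). Of 18 genes listed under chitin synthesis and matrix, 5 or 27.8% did, and these 5 include the heme synthesis gene Alas. The 4 strongest were mmy (551), which makes the UDP-N-acetylglucosamine that chitin is built from, rtv (408.5), which organises chitin fibres, Alas (386), which starts heme synthesis, and nst (372), which acts in the same precursor pathway as mmy. Of 18 regulators of cuticle genes, 7 or 38.9% did, among them the nuclear receptor genes Hr39 (540), EcR (393), ftz-f1 (364) and usp (354). With the pooled list, against 56.1% of all protein-coding genes, the counts were 2 of 13 (15.4%) for the other cuticular proteins and 4 of 13 (30.8%) for the tanning enzymes. They were 7 of 18 (38.9%) for the chitin list, again with Alas, and 16 of 18 (88.9%) for the regulators. The regulators thus stood above the pooled background but just under the IDR background. With lists of this size the shares are coarse, and the differences between lists were not tested.

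Some values rest on genes that are hard to tell apart by sequence. Within the Lcp65A/Cpr65A run, the promoters of Lcp65Ab1 and Lcp65Ab2 were 98.0% identical and those of Cpr65Ax1 and Cpr65Ax2 97.7%. Reads from such copies may not be placed uniquely, and how they were treated is not given in the sources used here. Without these 4 genes the count was 1 of 111.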

How the data were processed

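Peak lists of 3 replicates of 1 group, a pooled list and an IDR list were analysed. Per the labels the build is dm6, and chromatin was sheared to 200 to 800 bp. Per the deposited text files, each list was called against a control library, and the pooled list used all 3 libraries. Each deposited peak has the authors' signal value, a −log10 q-value (not used) and a summit offset. Signal has its own scale in each list and served only to rank or describe peaks. List lengths carry no information. The aligner, the caller and the IDR threshold were not given in the sources used here. Read depth is unknown.

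Summits were set against TSSs of all transcripts in the Ensembl annotation BDGP6.54, on 2L, 2R, 3L, 3R, 4 and X, with Python 3.11.15, pandas 2.3.3 and NumPy 2.4.6, checked on planted summits. Counts were described beside all protein-coding genes, without tests. Shares have 95% Wilson intervals. Replicates were compared on their 7241 strongest summits and on whole lists. Named genes are members with a promoter summit, the first and last of each run, genes nearest to summits in or beside runs, members with near-identical promoters, and up to 4 bound genes of each other list; genes just beyond 500 bp or with replicate summits were named after their values were seen. The members and lists were chosen with earlier results of these data known. Of the listed symbols, vajk1, vajk2, vajk3 and Dat were not matched. Alternatives covered the distance limit, the list, each replicate left out, the TSS definition, isolated genes, near-identical promoters and the gap within runs.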

Additional observations from a re-analysis of the deposited data

How the results depend on the processing

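The count of cuticle protein genes with a promoter summit, 1 of 115, was 0 at a 250 bp limit, 2 at 1000 bp, 0 with the 3621 stronger summits of the IDR list, 6 with the pooled list, 0 among the 47 isolated genes and 0 when each summit was given to the nearest TSS only (chosen after the data were seen). The consensus list gave 1, as did lists with each replicate left out (1 to 1). Over all these settings the share of all protein-coding genes was 24.1 to 56.1%. Summits within runs numbered 2, but 1 with gaps under 10 kb, 1 with the 3621 stronger summits and 7 with the pooled list, and 2 with each replicate left out (2 to 2). The median border distance, 13.2 kb, was 11.8 kb with gaps under 10 kb, 14.0 kb with gaps under 40 kb, 14.5 kb with those 3621, 8.33 kb with the pooled list, 14.1 kb in the consensus and 13.1 to 14.1 kb with a replicate left out. Leaving a replicate out also replaces the IDR list by summits shared between the other replicates. Adding Twdlalpha and Twdlbeta, chosen after the data were seen, gave 2 summits in runs and 13.2 kb. Lists of different lengths differ in how many weak peaks they hold. No paired analysis was possible because there is only 1 group. Depth is unknown, so it cannot be said which weak sites would pass with more reads.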

Other observations

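The Tweedle genes that the symbol rule leaves out stood away from summits too. Twdlalpha, on X, lay 4.16 kb from the nearest IDR summit and Twdlbeta, on 2R, lay 10.0 kb from it, and the pooled list had no nearer summit for either. Summits of the pooled list came close to the largest run without entering its promoters. The 17-gene run from Lcp65Ag3 to Cpr65Az had pooled summits 0.604 kb before it and 0.536 kb after it. Its IDR summits on either side stood 5.06 and 12.4 kb away. The run held 1 pooled summit and 1, 3 and 3 summits in replicates 1, 2 and 3, none of them matched between replicates. How often summits match over the whole replicate lists was not counted.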
